A study of Enchytraeus crypticus with 30 samples.

Results

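Adults of *Enchytraeus crypticus* kept for 3 days in soil with nickel nanoparticles (Ni-NPs) at the EC20 were compared with adults kept for 3 days in soil without nickel. The samples were taken by their titles, 3 of Ni-NPs EC20 and 3 of Control at day 3, and make up 6 of the 30 samples of the nickel exposures. Each sample was the total RNA of whole bodies of 20 pooled adults with a developed clitellum, the glandular ring that marks a mature worm, and was labelled with a single dye and read on an array of its own with 43750 probes. All animals, controls included, were kept in LUFA 2.2, a natural standard soil, and the labels call the replicates biological. The EC20 is the concentration that lowers reproduction by 20%, so the dose was set by an effect on offspring and not by an effect on the adults that were sampled. The further groups used below were NiNO3 EC20 at day 3 (nickel nitrate, a soluble salt, at its own EC20), Ni-NPs EC50 at day 3 (the concentration that lowers reproduction by 50%), and Ni-NPs EC20 and Control at day 7, with 3 samples each.

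*E. crypticus* is a small white relative of the earthworms that lives in the pore water and litter of soils and is a standard animal of soil toxicity tests, with reproduction as the usual measured effect. Soil worms take up metals through the body wall and with the soil they eat. Nickel nanoparticles release nickel ions as they dissolve and can also be taken up as particles, whereas a nickel salt reaches the animal as ions. Typical responses of animal cells to an excess of metal ions include metal-binding proteins such as metallothioneins, chaperones that refold damaged proteins, and enzymes that remove reactive oxygen. The probes of this array carry only the name of the sequence they were designed from, either an assembled sequence ("contig" and a number) or a single read (a name starting with GYUW2K4). No gene name, function or base sequence was paired with them in the files used here, so none of these responses could be looked up, no marker gene of exposure or of a tissue could be checked against the labels, and the results are given by probe name.

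The level of a probe is the log2 of its background-corrected signal minus its array's median. That median, here and below, was taken over the tested probes only, so that 0 is the level of the median tested probe. A difference of 1 is a doubling. The test covered the 24653 probes (56.3%) whose signal was positive and significantly above background on each of the 30 arrays. A level of a whole body changes alike when cells of a type become fewer and when each cell holds less of the RNA, and these cannot be told apart here. Between 34031 and 40433 probes of an exposed array and between 34908 and 38076 of a control array passed this on their own array. The share of probes well above background was 55.1%, 52.8% and 76.3% in Ni-NPs EC20 replicates 1, 2 and 3, against 58.9%, 56.8% and 64.6% in the controls, with no difference between the groups in an exact two-sided permutation test (p = 1), which cannot go below 0.1 with 3 arrays against 3. Exposed replicate 1 lay on one slide (slide 3) with control replicates 1 and 2, exposed replicate 3 on another (slide 8) with control replicate 3, and exposed replicate 2 on a slide with no control of day 3, and these 3 slides were scanned on 3 different days. Differences within slides 3 and 8 are therefore given beside the pooled ones. Over all tested probes, the correlation between arrays was 0.968 to 0.978 among exposed replicates, 0.965 to 0.978 among control replicates and 0.958 to 0.981 between an exposed and a control array.

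Few probes passed the threshold after exposure to Ni-NPs at the EC20 for 3 days. A probe that did not pass is not thereby shown to be unchanged. At an adjusted p under 0.05 (limma with Benjamini-Hochberg adjustment over all tested probes), 12 of the 24653 probes differed from the control (0.0487%), 11 higher and 1 lower in the exposed worms. The 11 higher probes were 2.76 to 6.27 times their control level (log2 fold change 1.46 to 2.65, median 2.25, standard errors 0.27 to 0.47, n = 3 arrays per group), and the lower one, contig21200, was 4.52 times below it. Over all tested probes the median log2 fold change was -0.06, with quartiles of -0.32 and 0.19. A median near 0 follows from setting each array's median to 0, and it was 0.25 after MedianCD normalization, 0.20 after SVCD normalization (both methods of the study) and 0.72 when the arrays were scaled to their spike-in controls. With unadjusted p under 0.05, 1867 probes (7.57%) would pass, 886 higher and 981 lower. The split into higher and lower probes moved with the scaling of the arrays. It was 19 higher and 8 lower after quantile normalization and 15 higher and 6 lower when the 75th percentile replaced the median, against 230 higher and 2 lower after MedianCD, 41 higher and 1 lower after SVCD and 14 higher and 0 lower with spike-in scaling. No probe passed when the variance of each probe was taken by itself (the methods' t-test) or when limma was fitted to the 6 arrays alone.

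**Figure D1:**
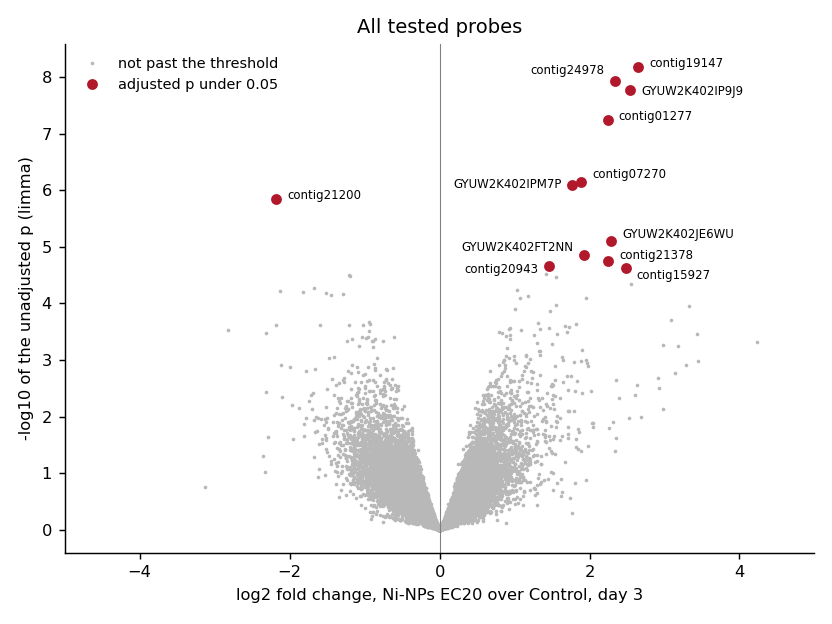
All 24653 tested probes, with the log2 fold change of Ni-NPs EC20 over Control at day 3 on the horizontal axis and the negative log10 of the unadjusted limma p on the vertical axis. The 12 probes past the threshold (large points, named) have the lowest p, 11 to the right and contig21200 to the left, and several larger changes lie below them.

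The 4 probes with the lowest adjusted p were all higher in the exposed worms. Contig19147 had levels of 5.35, 5.37 and 5.31 in Ni-NPs EC20 replicates 1, 2 and 3, against 1.90, 2.60 and 3.59 in the controls. The exposed arrays were nearly identical (SD 0.03) while the controls were spread over 1.70 log2 units (SD 0.85), and the log2 fold change was 2.65 (standard error 0.30, adjusted p = 1.36e-04). Contig24978 had levels of 1.45, 2.21 and 1.51 in exposed worms, against -0.73, -0.42 and -0.71 in controls. Its groups were far apart beside their spread, with a log2 fold change of 2.34 (standard error 0.27, adjusted p = 1.36e-04). GYUW2K402IP9J9 had levels of 2.53, 2.30 and 1.76 in exposed worms, against -0.31, -0.38 and -0.34 in controls. Here the controls were the tight group (SD 0.03), and the log2 fold change was 2.54 (standard error 0.30, adjusted p = 1.36e-04). Contig01277 had levels of 2.58, 2.79 and 2.49 in exposed worms, against 0.45, 0.06 and 0.62 in controls, a log2 fold change of 2.24 (standard error 0.29, adjusted p = 3.54e-04).

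Another pair of probes was higher in the exposed worms and crossed the median level of the tested probes. Contig07270 had levels of 0.58, 0.40 and 0.76 in Ni-NPs EC20, against -1.69, -1.42 and -0.82 in the controls (log2 fold change 1.89, standard error 0.28, adjusted p = 0.00326). GYUW2K402IPM7P had levels of 0.71, 0.69 and 0.38 in Ni-NPs EC20, against -1.29, -1.01 and -1.22 in the controls (log2 fold change 1.77, standard error 0.27, adjusted p = 0.00326). Both probes were thus above the median on every exposed array and below it on every control array.

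Contig21200 was the only probe past the threshold that was lower in the exposed worms. Its levels were 0.55, 0.47 and 1.47 in Ni-NPs EC20, against 3.11, 2.65 and 3.26 in the controls (log2 fold change -2.18, standard error 0.34, adjusted p = 0.00504). Exposed replicate 3 was the nearest to the controls and still 1.18 below the lowest of them. The transcript thus stayed well above background on all 6 arrays.

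The remaining 5 probes passed the threshold by less. GYUW2K402JE6WU was the dimmest, with levels of 0.52, 0.17 and -0.89 in Ni-NPs EC20, against -2.15, -2.44 and -2.48 in the controls (log2 fold change 2.29, standard error 0.40, adjusted p = 0.0245), and was well above background on 2 of the 3 control arrays. GYUW2K402FT2NN had levels of 0.47, 1.80 and 1.43 in Ni-NPs EC20, against -1.09, -0.36 and -0.63 in the controls (log2 fold change 1.93, standard error 0.35, adjusted p = 0.0376). Contig21378 had levels of 1.71, 2.91 and 2.63 in Ni-NPs EC20, against -0.54, 0.31 and 0.74 in the controls (log2 fold change 2.25, standard error 0.42, adjusted p = 0.0433). In both, exposed replicate 1 was the lowest exposed array. Contig20943 had the smallest change, with levels of 0.46, 0.65 and 0.48 in Ni-NPs EC20, against -0.48, -0.73 and -1.58 in the controls (log2 fold change 1.46, standard error 0.28, adjusted p = 0.0483). Contig15927 was the brightest of the 12, with levels of 8.41, 9.57 and 9.88 in Ni-NPs EC20, against 7.85, 6.32 and 6.24 in the controls (log2 fold change 2.49, standard error 0.47, adjusted p = 0.0484). Exposed replicate 1 and control replicate 1 of this probe were only 0.57 apart, so its groups did not overlap by a small margin.

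**Figure D2:**
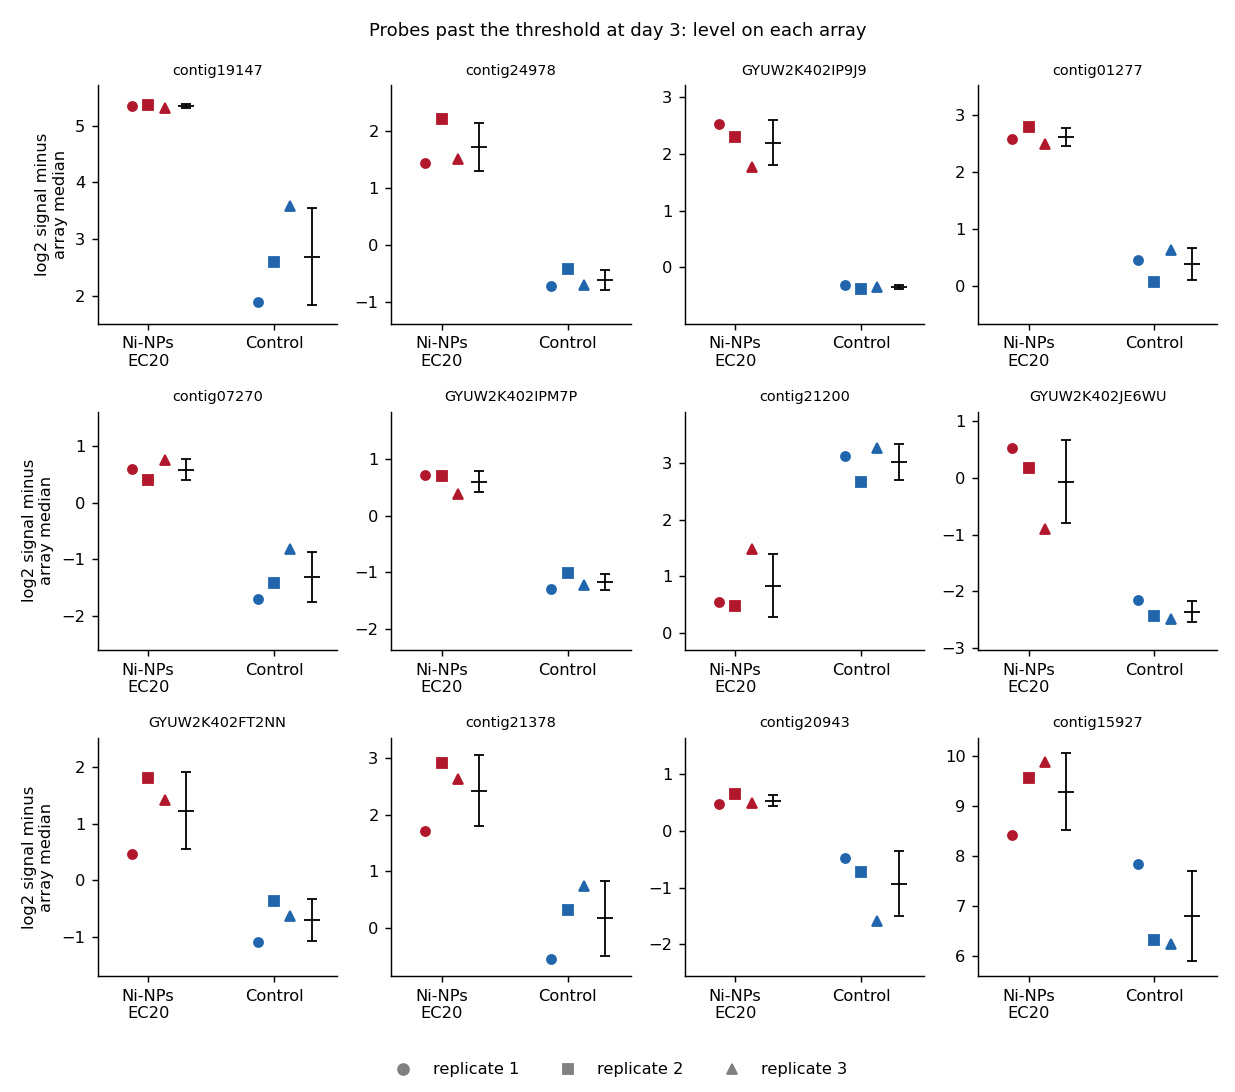
Level of each of the 12 probes past the threshold on the 6 arrays of day 3 (log2 signal minus the array's median), with Ni-NPs EC20 on the left and Control on the right of each panel, a symbol for each replicate, and a bar for the mean and SD of the 3 arrays. The groups do not overlap in any panel, and the gap between them is narrowest for contig15927, where exposed and control replicate 1 are at 8.41 and 7.85.

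For all 12 probes the 3 exposed arrays lay on one side of the 3 control arrays, which was also true of 3522 tested probes (14.3%), 1419 higher and 2103 lower in the exposed worms. The difference held within slides. Within slide 3, exposed replicate 1 differed from the mean of control replicates 1 and 2 in the direction of the pooled change for all 12, by 1.07 to 3.10 on the log2 scale, where the SD of the same difference over all tested probes was 0.46. Within slide 8, exposed replicate 3 differed from control replicate 3 in that direction for all 12, by 1.58 to 3.64, with an SD of 0.64 over all tested probes. Since the 12 were selected on the mean over these arrays, this describes where the change lies and is not a second test. With slide as a block in the fit 15 probes passed, 8 of them among the 12, and contig21200, GYUW2K402IPM7P, GYUW2K402FT2NN and contig15927 no longer did. Single arrays moved the count: it was 51 without control replicate 1 (10 of the 12 among them), 7 without control replicate 2 (all 7 among the 12) and 6 without exposed replicate 2 (all 6 among the 12).

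**Figure D3:**
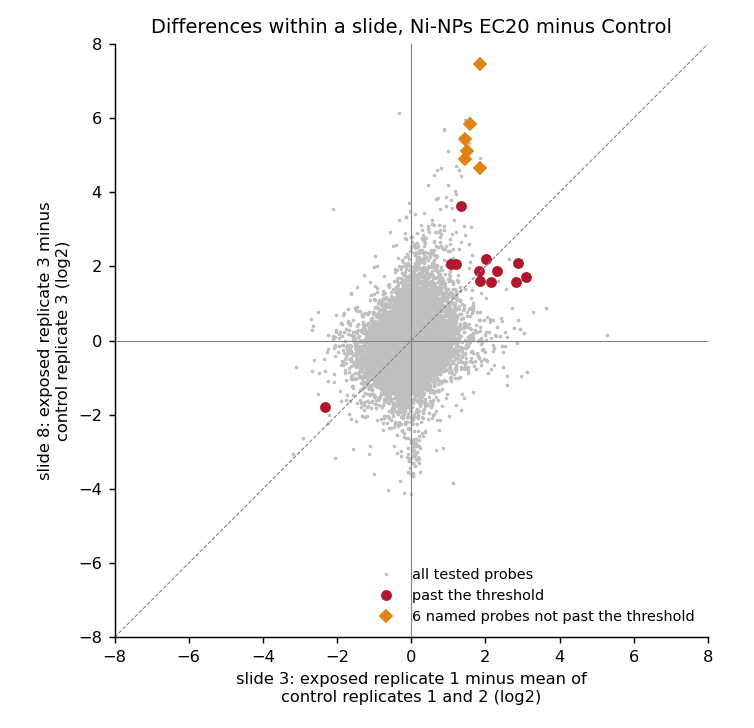
Difference between Ni-NPs EC20 and Control within slide 3 (horizontal axis) and within slide 8 (vertical axis) for all tested probes on the log2 scale, with equality as a dashed line. The 12 probes past the threshold (circles) lie well away from 0 on both axes, while 6 probes with still larger mean differences (diamonds) differ by 4.65 to 7.46 within slide 8 and by 1.44 to 1.85 within slide 3.

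The largest differences at day 3 did not pass the threshold. On all 6 arrays 20082 of the tested probes were well above background with no saturated spot, and 342 of them had an unadjusted p under 0.01 and groups that did not overlap (1.39% of all tested), 191 higher and 151 lower in exposed worms, and the 8 with the largest change in each direction were looked at. Contig00196 had the largest mean difference, with levels of 5.54, 7.09 and 7.50 in Ni-NPs EC20, against 5.23, 2.17 and 0.04 in the controls (log2 fold change 4.23, standard error 1.04, adjusted p = 0.171). Its control arrays spanned 5.19 log2 units, and control replicate 1 came within 0.32 of the lowest exposed array. GYUW2K402JEQVP had levels of 2.62, 3.90 and 4.26 in Ni-NPs EC20, against 2.17, -0.09 and -1.59 in the controls (log2 fold change 3.43, adjusted p = 0.155). Contig17671 had levels of 3.38, 5.13 and 4.97 in Ni-NPs EC20, against 3.33, 0.53 and 0.07 in the controls (log2 fold change 3.18, adjusted p = 0.187). GYUW2K402FMPDK, GYUW2K402HWISX and contig03802 had log2 fold changes of 3.08, 2.98 and 2.92 with adjusted p of 0.148, 0.464 and 0.352.

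These 6 probes shared an order of the arrays. In each of them control replicate 1 was the highest control and replicate 3 the lowest, and exposed replicate 1 was the lowest exposed array. The abundant contig03802 shows it best, with levels of 9.43, 9.85 and 10.20 in Ni-NPs EC20, against 9.21, 6.77 and 4.75 in the controls. The order was not particular to these 6 probes, since contig15927 and contig20943, both past the threshold, had it too. The SD among the controls of the 6 probes was 1.47 to 2.61, where the median SD of a tested probe among controls was 0.32. Without control replicate 1, contig00196, GYUW2K402JEQVP, contig17671, GYUW2K402FMPDK and contig03802 passed the threshold and GYUW2K402HWISX did not. A wide spread was not particular to day 3, since contig00196 also ranged from 1.57 to 6.90 over the 3 controls of day 7. Over the 24 nickel arrays it ranged from 4.36 to 7.50.

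**Figure D4:**
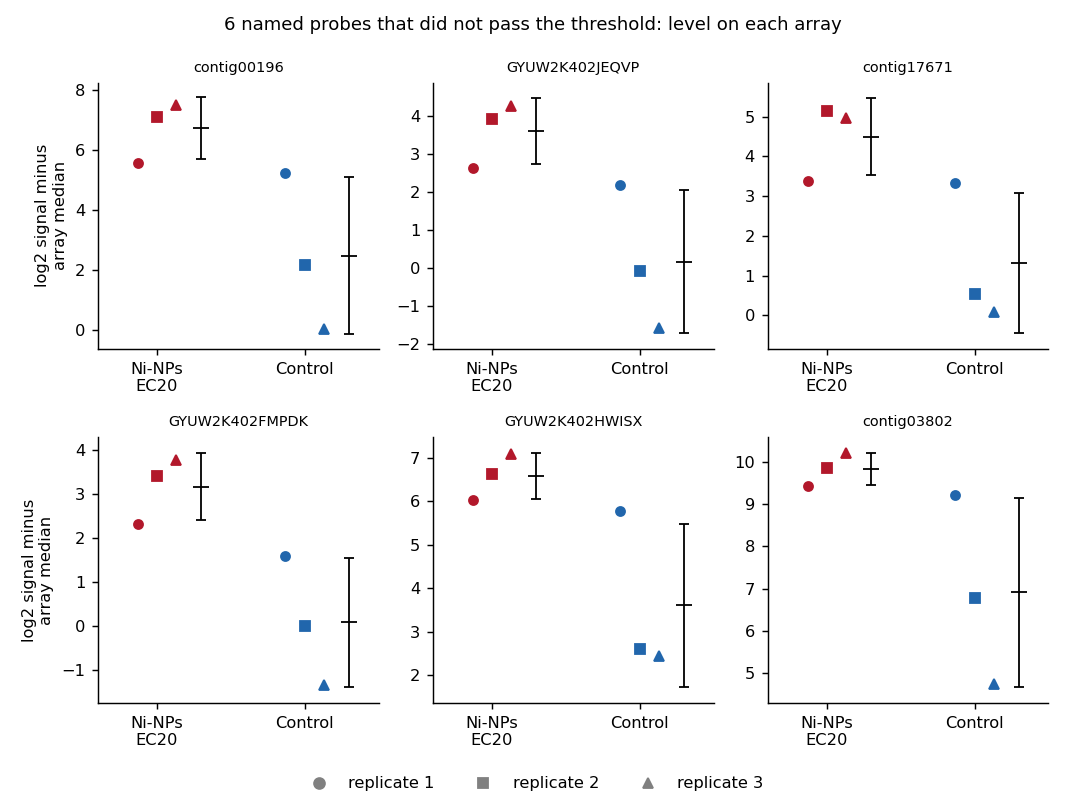
Level of 6 probes with large mean differences that did not pass the threshold, on the 6 arrays of day 3 (log2 signal minus the array's median), with Ni-NPs EC20 on the left, Control on the right, a symbol for each replicate and a bar for mean and SD. Control replicate 1 lies close under the exposed arrays in every panel and control replicate 3 far below them, as for contig00196 with controls at 5.23, 2.17 and 0.04.

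The last of the 8 higher probes that had not passed, GYUW2K401BP9T5, had levels of 1.41, 1.63 and 0.07 in Ni-NPs EC20, against -1.37, -1.06 and -2.12 in the controls (log2 fold change 2.56, standard error 0.51, adjusted p = 0.0651). Its SDs, 0.84 among exposed and 0.54 among control arrays, were above the median SD of a tested probe, 0.32 in both groups. Among the 8 lower probes, 4 came near the threshold or had SDs close to these medians. GYUW2K401DKAUB had levels of -0.71, -0.70 and 0.53 in Ni-NPs EC20, against 1.24, 1.75 and 2.54 in the controls (log2 fold change -2.13, adjusted p = 0.0718). GYUW2K402I04L2 had levels of -1.52, -1.13 and -0.54 in Ni-NPs EC20, against 0.18, 0.59 and 1.08 in the controls (log2 fold change -1.68, adjusted p = 0.0718). GYUW2K402IQOV9 had levels of -1.33, -0.97 and -0.45 in Ni-NPs EC20, against 0.29, 0.50 and 1.01 in the controls (log2 fold change -1.52, adjusted p = 0.0718). The levels of these last 2 probes ran side by side, with replicate 1 lowest and replicate 3 highest in both groups. GYUW2K401DKAUB had the same order of replicates. GYUW2K402IOYCC, a brighter probe, had levels of 4.51, 5.08 and 4.61 in Ni-NPs EC20, against 6.05, 6.23 and 6.71 in the controls (log2 fold change -1.60, adjusted p = 0.148).

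Of the other lower probes, contig19432 had levels of -0.67, -2.16 and -2.03 in Ni-NPs EC20, against -0.22, 1.08 and 0.82 in the controls (log2 fold change -2.18, adjusted p = 0.148). Contig22986 had a log2 fold change of -1.87 (adjusted p = 0.462) with 1 control, replicate 3, at 1.74 and the others at -0.69 and -0.93. GYUW2K401D09I4 had a log2 fold change of -1.68 (adjusted p = 0.393) with 1 control, replicate 2, at 1.65 and the others at -1.01 and -1.37.

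Among all 43750 probes, including those too dim to be tested, 59 (0.135%) were well above background on all 3 exposed arrays and on none of the controls, and 10 (0.0229%) were so on all 3 controls and on no exposed array. Since such a probe has only a bound in the dim group, its fold is given against the higher of its own value and the lowest signal that was well above background on each array. This fold is a bound on the difference of the measured group means, and not a lower limit from the fit. GYUW2K401CZFEM had measured levels of -1.83, -1.51 and -2.02 in Ni-NPs EC20, against -3.37, -4.50 and -5.56 in the controls, where it was not well above background, and was at least 2.29-fold higher in exposed worms. Contig08194 (levels of -1.15, -1.61 and -1.69 in Ni-NPs EC20, against -3.11, -4.61 and -4.19 in the controls) was at least 2.83-fold higher and GYUW2K401APKAJ at least 1.70-fold. In the other direction, contig20507 was at least 2.13-fold lower, GYUW2K402G2URD at least 1.53-fold and contig15154 at least 1.24-fold, the last with overlapping groups. In a fit to all 43750 probes none of the 59 and none of the 10 passed the threshold, and the adjusted p of the 6 named here were 0.0636 for GYUW2K401CZFEM and 0.524 to 0.870 for the others.

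The salt at its own EC20 was set against the nanoparticles directly, at the same day. The soil concentrations of nickel at the 2 EC20s are not the same, since far more nickel is needed as nanoparticles than as salt for the same effect on reproduction, so the groups are matched by effect and not by dose. No probe differed between Ni-NPs EC20 and NiNO3 EC20 at an adjusted p under 0.05 (0 of 24653, 0%, lowest adjusted p = 0.265), and 2210 probes (8.96%) had an unadjusted p under 0.05. This count stayed at 0 after quantile, 75th percentile and spike-in scaling. It moved to 2202 probes after MedianCD normalization, 2189 higher and 13 lower with the nanoparticles, and to 117 after SVCD normalization, all higher. It was 26 without NiNO3 EC20 replicate 3, 14 higher and 12 lower with the nanoparticles, and 0 without any other array of the 2 groups. Against the same controls, 88 probes (0.357%) passed the threshold for NiNO3 EC20.

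The 12 probes were set side by side over these shared controls. Contig19147, contig24978, GYUW2K402IP9J9 and contig07270 had log2 fold changes of 2.65, 2.34, 2.54 and 1.89 with Ni-NPs EC20, against 2.97, 2.48, 2.76 and 1.74 with NiNO3 EC20. The direct differences between nanoparticles and salt for these 4 were -0.32 to 0.16, with 95% intervals that lay between -0.94 and 0.74, so that under this scaling differences over 1 log2 unit fall outside them. The median difference over all tested probes was -0.02 under this scaling, -0.01 after quantile normalization and -0.09 with the 75th percentile. It was 0.35 after MedianCD, 0.29 after SVCD and 0.31 with spike-in scaling, so the intervals hold for this scaling only. Contig01277 had a log2 fold change of 2.24 with Ni-NPs EC20 and 3.55 with NiNO3 EC20, a difference of -1.30 (95% interval -1.90 to -0.71, adjusted p = 0.265). GYUW2K402JE6WU had 2.29 with Ni-NPs EC20 and 3.64 with NiNO3 EC20, a difference of -1.35 (-2.18 to -0.52, adjusted p = 0.453). Contig15927 went the other way, with 2.49 with Ni-NPs EC20 and 0.64 with NiNO3 EC20, a difference of 1.84 (0.86 to 2.82, adjusted p = 0.337). Contig21200 had -2.18 with Ni-NPs EC20 and -3.06 with NiNO3 EC20, a difference of 0.89 (0.18 to 1.59, adjusted p = 0.532). The other 4 probes had larger log2 fold changes with the nanoparticles than with the salt, by 0.66 for GYUW2K402IPM7P (0.11 to 1.21), 0.64 for contig20943 (0.07 to 1.21), 0.63 for contig21378 and 0.52 for GYUW2K402FT2NN, the last 2 with intervals that reached below 0 (-0.23 and -0.21). None of these differences passed the threshold over all probes, and the intervals are not corrected for the number of probes. The 12 were selected on the Ni-NPs EC20 arrays that enter these differences, and the intervals are not corrected for that selection either.

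Raising the nanoparticles to the EC50 gave no further difference that passed the threshold. Between Ni-NPs EC20 and Ni-NPs EC50 at day 3, 0 of 24653 probes differed (0%, lowest adjusted p = 0.523), with 1882 (7.63%) at an unadjusted p under 0.05. Against the shared controls, 57 probes (0.231%) passed for Ni-NPs EC50. With the arrays scaled to their medians, contig24978, contig07270 and contig21200 were at nearly the same level at both concentrations. Their direct differences were -0.04 (95% interval -0.60 to 0.53), -0.05 (-0.63 to 0.54) and 0.01 (-0.69 to 0.72). The median difference over all tested probes was -0.03 under this scaling, -0.01 after quantile normalization and 0.02 with the 75th percentile. It was 0.10 after MedianCD, 0.14 after SVCD and 0.64 with spike-in scaling, so the differences and intervals given here hold for this scaling only. Contig01277 had a log2 fold change of 2.24 at the EC20 and 3.22 at the EC50, a difference of -0.98 (-1.57 to -0.39, adjusted p = 0.580). Contig20943 had 1.46 at the EC20 and 0.49 at the EC50, a difference of 0.98 (0.40 to 1.55, adjusted p = 0.571). The other 7 differences lay between -0.48 for GYUW2K402IP9J9 and 0.75 for contig21378, and of their intervals only that of GYUW2K402IPM7P (0.59, interval 0.04 to 1.14) excluded 0. These probes were selected on the same Ni-NPs EC20 arrays. The intervals are corrected neither for that selection nor for the number of probes.

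At day 7, against the separate controls of that day, 3 of the 24653 probes (0.0122%) passed the threshold at the same concentration of nanoparticles. All 3 were among the 12 of day 3. Contig24978 had a log2 fold change of 2.34 at day 3 and 1.60 at day 7, contig21200 of -2.18 and -2.09, and GYUW2K402JE6WU of 2.29 and 2.38 (adjusted p = 0.0448 at day 7 for each of these). All 12 had the same sign at day 7 as at day 3, with sizes of 0.09 to 2.38 at day 7 (median 0.92) and of 1.46 to 2.65 at day 3 (median 2.24). The 12 were selected for their change at day 3 and not at day 7. In the test of the difference between the responses, no probe passed (0 of 24653, 0%, lowest adjusted p = 0.968), and 1064 (4.32%) had an unadjusted p under 0.05, 269 with the higher value at day 3. Contig07270 had the widest gap beside its error, with log2 fold changes of 1.89 at day 3 and 0.09 at day 7, a difference of 1.80 (95% interval 0.98 to 2.63). Contig15927 had 2.49 at day 3 and 0.26 at day 7, a difference of 2.23 (0.84 to 3.61). Its level was about the same in exposed worms at both days, 9.29 ± 0.77 at day 3 and 9.02 ± 0.28 at day 7, whereas the controls averaged 6.80 ± 0.91 at day 3 and 8.76 ± 1.09 at day 7 (SD, n = 3 each).

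**Figure D5:**
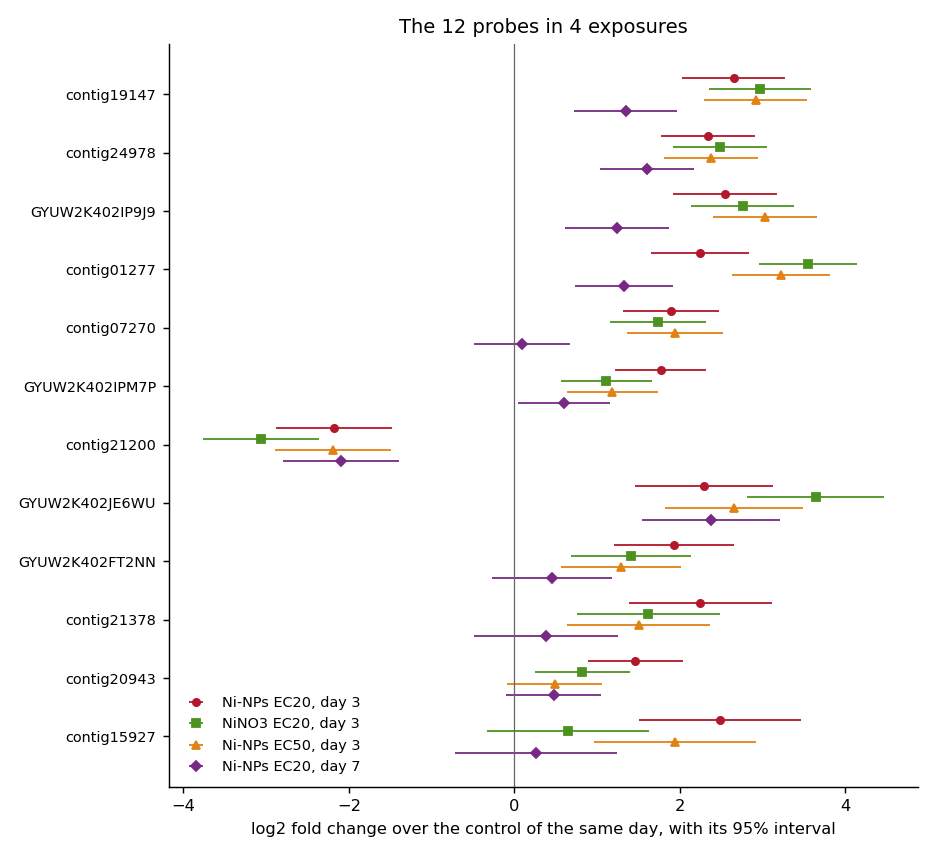
Log2 fold change over the control of the same day, with its 95% interval, for the 12 probes past the threshold at day 3 with Ni-NPs EC20, in 4 exposures of 3 arrays each. Contig21200 and GYUW2K402JE6WU have similar values with Ni-NPs EC20 at both days, while contig07270 is at 1.89 at day 3 and 0.09 at day 7, and the 3 exposures of day 3 share their controls.

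Across all exposures, 5 of the 12 probes separated nickel from control without overlap, as did 19 of all 24653 tested probes (0.0771%), 11 higher and 8 lower with nickel. The 6 arrays that selected the 12 are among these 30, so this is a description and not a further test. Contig19147 ranged from 4.02 to 5.88 over the 24 nickel arrays (median 5.30), against 1.90 to 3.62 over the 6 control arrays (median 3.15). Contig24978 ranged from 0.74 to 2.77 over the nickel arrays (median 1.92), against -0.88 to -0.15 over the controls (median -0.64). Contig01277 ranged from 1.41 to 4.38 (median 3.10), against 0.06 to 0.70 over the controls (median 0.28), and GYUW2K402JE6WU from -1.56 to 2.16 (median 0.36), against -3.58 to -2.15 (median -2.61). Contig21200 ranged from -1.48 to 1.47 over the nickel arrays (median 0.16), against 2.25 to 3.26 over the controls (median 2.70). GYUW2K402IP9J9 had 23 of 24 nickel arrays above every control. Among the others the number of nickel arrays above every control was 18 for contig07270, 17 for contig20943, 16 for GYUW2K402FT2NN and contig21378, 11 for GYUW2K402IPM7P and 0 for contig15927, for which 1 control array of day 7 was at 9.96.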

How the data were processed

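Total RNA of whole *E. crypticus* was labelled with Cy3 and hybridized to 1-colour Agilent arrays, 30 in all (10 conditions with 3 arrays each) on 10 slides. The deposited spot intensity values were made by the authors with Agilent Feature Extraction 10.7.3.1, which subtracts the background and corrects it for position on the array, and they were not normalized between arrays. The deposited table of the series held the same intensity values rounded (largest log2 difference 0.00719). Flags of 0 or 1 for spots above background, saturated spots and outliers were also deposited by the authors. No counts exist, so the number of arrays limits the precision.

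Groups were taken from the sample titles. Levels are log2 of the processed signal minus each array's median over the 24653 probes that were positive and significant on all 30 arrays, out of 43750 probes that are not controls. Limma 3.58.1 in R 4.3.3 was fitted with 1 mean per condition on all 30 arrays, with no covariate, and p-values were adjusted by Benjamini-Hochberg over all tested probes at a threshold of 0.05. The fit was tested on simulated data with normal noise and 200 changed probes, 50 at each size of change. It recovered 34% of the changes of 1 log2 unit, 50% of those of 1.5, 78% of those of 2 and 98% of those of 3. In the simulation 134 probes passed the threshold, more than in the real comparison with the control at day 3. The unadjusted p needed to pass is less strict when more probes pass. These percentages can therefore overstate the recovery in the real comparison. Array-level measures were compared with an exact two-sided permutation test.

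Named probes were all those past the threshold, then the 8 largest rises and falls with an unadjusted p under 0.01 and groups without overlap, and the 3 largest differences in each direction among probes well above background in 1 group only. The comparisons, the members and the naming rule were chosen with earlier results of these data known. A gene list was not used, since no gene names were at hand.

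Alternatives were 5 other scalings (quantile, 75th percentile, MedianCD, SVCD and spike-in controls), the filter on dim probes and outlier spots, the deposited table, the arrays in the fit, slide, scan day or replicate number as a block, the variance model, the methods' t-test, and leaving out each array in turn. Normexp with an offset of 50 was run on the median signals, a choice made after seeing the data, because the mean signals it was planned for were not among the values at hand.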

Additional observations from a re-analysis of the deposited data

Results flagged for a closer look

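Some probes that the comparison did not test were flagged well above background in 1 group only. They are part of the 59 (0.135%) and 10 (0.0229%) such probes among all 43750. Among the probes that were not positive and significant on all 30 arrays, 47 were well above background on all 3 Ni-NPs EC20 arrays of day 3 and on none of the 3 controls, and 8 were so on all 3 controls and on no exposed array. In a fit with no filter on dim probes none of the 47 and none of the 8 passed the threshold (limma with Benjamini-Hochberg adjustment). Exposed replicate 3, with 76.3% of its probes well above background, had the highest share of the 6 arrays, against 64.6% in the highest control. The part of this in the 47 probes was not tested.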

How the results depend on the processing

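In Ni-NPs EC20 against Control at day 3, 12 probes passed the threshold, and the count was 27 after quantile normalization, 21 after 75th percentile scaling, 232 after MedianCD and 42 after SVCD normalization, with all 12 among them each time. It was 23 among probes well above background on all 30 arrays, 43 with slide as a random block, 24 with scan day as a fixed block and 19 with a trend in the variance. It was 0 in limma on the 6 arrays alone (2097 probes with an unadjusted p under 0.05) and 0 in the methods' t-test (1839 unadjusted). Leaving out 1 array gave 6 to 51. Other filters, spike-in scaling, the deposited table, slide as a fixed block and a robust prior gave 10 to 15, and normexp on the median signals, chosen after seeing the data, gave 8 (5 higher and 3 lower in exposed worms). Similar counts did not mean the same probes. Of the 12, 9 still passed with spike-in scaling, 8 with slide as a fixed block, 7 with no filter on dim probes and 6 with normexp. Normexp on the mean signals was not run. The cause of these changes was not tested.

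The replicate numbers were not taken as pairs, since deviations from the group means correlated at 0.10, -0.09 and 0.39 for numbers 1, 2 and 3, and only number 3 of the 3 correlated best with its own number. With the replicate block 24 probes passed, 16 higher and 8 lower in exposed worms, with all 12 among them.

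Against NiNO3 EC20, where 0 probes passed (2210 unadjusted, limma), the count was 2202 after MedianCD (2189 higher with nanoparticles) and 117 after SVCD normalization (all higher). It was 0 to 26 when 1 array was left out (26 without NiNO3 EC20 replicate 3), and 2 with slide as a fixed block. These 2 were contig08586 (log2 fold change -2.52, adjusted p = 0.0247) and contig23778 (-2.55, adjusted p = 0.0310). Against Ni-NPs EC50, where 0 probes passed (1882 unadjusted, limma), limma on the 6 arrays alone gave 3, GYUW2K401C4XEL, GYUW2K401BW4QZ and contig26743 (log2 fold changes between -2.13 and -1.94, adjusted p = 0.0397), and the methods' t-test gave 2, contig26743 and contig05389. All the probes named in this paragraph were lower with Ni-NPs EC20 and were named after their values were seen. The difference between days gave 0 in every alternative run.

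Over the 645 combinations of 26 named probes and an alternative, 0 changed direction, 67 lost the call and 46 gained it. Contig19147, GYUW2K402IP9J9, contig01277 and contig07270 were past the threshold in 23 of the 25 alternatives and not in the fit to the 6 arrays alone and the t-test.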
